A study of Mus musculus with 4 samples.

Results

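The contractile genes of smooth muscle and myofibroblasts were examined in RNA-seq of primary mouse embryonic fibroblasts (MEFs). The group holds 10 genes, chosen by symbol from the 24391 in the count table: *Acta2*, *Actg2*, *Tagln*, *Cnn1*, *Myl9*, *Tpm1*, *Tpm2*, *Myh11*, *Lmod1* and *Des*. They were grouped by what the proteins do. All 10 had enough reads to be tested.

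There were 2 WT and 2 *Phf2* KO libraries, each group with a replicate 1 and a replicate 2. The cells of both groups carried Phf2 flox/flox alleles and ERCre/+, which is the Cre recombinase CreERT2 made from the Rosa26 locus and switched on by 4-hydroxytamoxifen (4-OHT). The labels mark the *Phf2* KO libraries with tamoxifen and the WT libraries as without it. The shared protocol text gives 0.5 µM 4-OHT for 7 days on MEFs from E13.5 embryos that had been arrested in quiescence. Since tamoxifen, active Cre and the deletion go together in these labels, their effects cannot be told apart. The study calls its replicates biological, without saying whether each was an embryo or a pool. The p-values of the fit with genotype alone rest on the spread between these libraries. Where replicate number is added to the model, the p-values leave out the spread between the replicate numbers. In both fits the standard errors borrow from other genes, in part with genotype alone and almost wholly with replicate number added. In the latter fit, a gene's own disagreement between the replicate numbers therefore carries little weight.

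Smooth muscle contracts when myosin filaments, built from heavy and light chains, pull on actin filaments that are lined with tropomyosin and other actin-binding proteins. A fibroblast that takes on part of this machinery is called a myofibroblast, and smooth muscle α-actin (*Acta2*) in stress fibres is its usual mark. The serum response factor (SRF), with its cofactors of the myocardin family, binds a motif called the CArG box near many of these genes, and TGF-β and mechanical tension are known inputs. Cultured fibroblasts commonly express part of this set.

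The CArG box was looked for in RefSeq promoters (GRCm38.p6), which run from 250 bases before to 50 bases after a gene's start and were found for 7 of the 10 genes. *Actg2*, *Tagln* and *Myh11* had no entry. The motif is its own reverse complement, so a search of 1 strand covers both. With an unbroken A or T core it was present in 1 of these 7 promoters and in 1.63% of all 32851 promoters. With 1 base of the core left free it was present in 2 of the 7 and in 9.98% of all promoters. The 4 matches, all those found in the group, lie before *Acta2* and *Myl9* and are shown with 10 bases on each side. Each is written from 5′ to 3′ on the strand of the gene, with the motif in capitals:
Acta2 chr19:34255438-34255467, reverse strand: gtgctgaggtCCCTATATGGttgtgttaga
Acta2 chr19:34255388-34255417, reverse strand: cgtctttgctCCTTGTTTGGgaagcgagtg
Myl9 chr2:156775293-156775322, forward strand: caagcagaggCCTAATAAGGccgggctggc
Myl9 chr2:156775355-156775384, forward strand: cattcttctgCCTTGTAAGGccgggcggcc
The motifs begin 84 and 34 bases before the start of *Acta2* and 161 and 99 bases before that of *Myl9*, and only the first of *Myl9* has the unbroken core. No match was found in these windows of *Cnn1*, *Des*, *Lmod1*, *Tpm1* and *Tpm2*, which says nothing of SRF at these genes.

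The libraries held between 21094743 and 26094268 counts. Levels are given in CPM, which are counts scaled to the size of the library with TMM factors. The floor, taken as 3 counts, came to 0.116 to 0.145 CPM per library and covers counting error only. *Phf2*, the deleted gene (chromosome 13 of mm9), was at 135 and 142 CPM in WT replicates 1 and 2 and at 70.2 and 89.8 CPM in *Phf2* KO replicates 1 and 2, so that reads of the gene remained in both *Phf2* KO libraries. The log2 fold change of *Phf2* was -0.79 (standard error 0.14), with an unadjusted p = 0.00332 and an adjusted p = 0.999 by edgeR's quasi-likelihood test, or 7.67e-19 once replicate number was added to the model. Replicate numbers 1 and 2 differed in both groups: *Xist* had 10042 and 8336 counts in replicate 1 of WT and *Phf2* KO but 3 and 12 in replicate 2, and the Y-linked *Ddx3y* had 6 and 10 counts in replicate 1 but 1271 and 1295 in replicate 2. Of 14 fibroblast markers all passed the filter, summing to between 65581 and 79902 CPM. Markers of macrophages (18 of the 19 in the table tested) summed to 4319 and 4887 CPM in WT and *Phf2* KO replicates 1 and to 947 and 1476 CPM in replicates 2, led by *Lyz2* and *Cd68*, and *Cx3cr1* was counted at most 8 times. Of 12 endothelial markers, 5 were tested and summed to between 186 and 287 CPM. *Flt1* led them, at 214 and 170 CPM in WT and 270 and 181 CPM in *Phf2* KO replicates 1 and 2. *Kdr* came next, at 18.3 and 8.94 CPM in WT and 12.5 and 5.62 CPM in *Phf2* KO. Endothelial *Tie1*, *Cldn5* and *Robo4* were at 0 in every library, and *Pecam1* and *Cdh5* were counted at most 6 times.

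Compared per length of annotated exon, smooth muscle α-actin was the most abundant of the group, although its place above *Tpm1* depended on the length used. In CPM per kb of annotated exon (NCBIM37, the assembly named mm9), *Acta2* stood at 350 and 625 in WT replicates 1 and 2 and at 390 and 543 in *Phf2* KO. *Tagln* followed at 161 and 250 in WT, *Myl9* at 107 and 199, and *Tpm1* at 123 and 161. The lower *Acta2* value lay above the higher *Tagln* value, whereas the ranges of *Tagln*, *Myl9* and *Tpm1* overlapped, so that these 3 could not be ordered beyond the spread between libraries. *Tpm1* has many transcripts, and per kb of its longest coding transcript it was at 276 and 362 CPM in WT, which overlapped *Acta2* (350 and 625 on that scale too) and lay above *Tagln*. *Tpm2* came next at 41.7 and 67.6 CPM per kb in WT. *Des* (14.1 and 6.25) overlapped both *Actg2* (12.5 and 13.9) and *Lmod1* (6.85 and 12.2), of which *Actg2* was the higher by a narrow gap, and all 3 lay below *Tpm2*. *Myh11* (3.60 and 5.96) and *Cnn1* (1.52 and 2.65), which encode late markers of mature smooth muscle, were the lowest of the 10 in WT. For scale, cytoplasmic β-actin (*Actb*) was at 758 and 820 CPM per kb in WT, vimentin (*Vim*) at 961 and 1098, and the non-muscle myosin heavy chain *Myh9* at 123 and 142.

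No contractile gene was called between *Phf2* KO and WT MEFs when genotype was the only term, and 1 member, *Des*, stood at 60.4% and 59.9% of WT within replicates 1 and 2. By edgeR's quasi-likelihood test over 13668 genes, at an adjusted p-value under 0.1, 0 of the 10 were called, against 0.00732% of all genes tested, and 0 had an unadjusted p-value under 0.05, against 4.21%. DESeq2 called 0 of the 10 as well, against 0.483% of all genes tested. The median log2 fold change was -0.14 over the 10 genes and 0.01 over all genes tested. Both replicate numbers hold 1 library of each group, so the comparison was also made within them, and with replicate number added to the fit as a block. There, 2 of the 10 were called lower, *Actg2* and *Des*, and 0 higher, against 5.20% of all genes called lower and 5.77% called higher (11.0% in all). Unadjusted p-values under 0.05 in the blocked fit were found for 5 of the 10, against 19.6% of all genes tested. The median with the block was -0.13 over the 10 and 0.01 over all. In the ratios within replicate numbers, 6 of the 10 were lower in *Phf2* KO in both, 1 was higher in both and 3 went opposite ways, where 30.2%, 32.6% and 37.2% of all genes did so. Scaling by library size alone turned the ratios of *Tpm1* in replicate 1 (-0.03) and *Myh11* in replicate 2 (0.0007), which made the tally 5 lower, 0 higher and 5 opposite. Fewer cells that express a gene and less RNA per cell cannot be told apart in such bulk libraries.

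**Figure D1:**
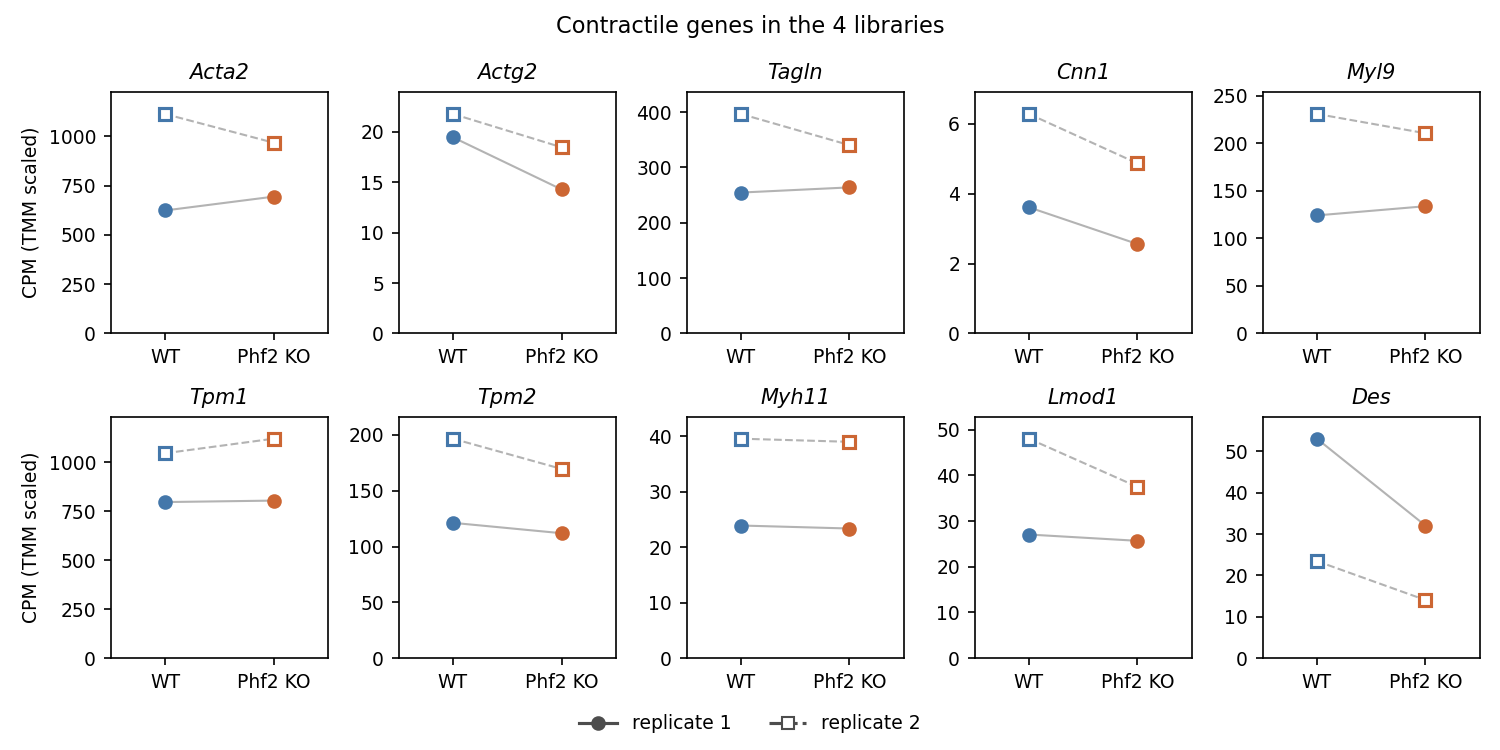
Level of each contractile gene in CPM (TMM scaled, linear axis from 0) in the 2 WT (blue) and 2 *Phf2* KO (orange) libraries; filled circles and solid lines are replicate 1, open squares and dashed lines replicate 2, and a line joins the libraries of 1 number. In 9 panels replicate 2 lies above replicate 1 in both groups, and in the panel of *Des* it lies below, while the lines of *Des* fall alike.

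Of the smooth muscle actins, *Acta2* was not called in either fit and *Actg2* was called lower with the block. *Acta2*, the α-actin that marks myofibroblasts (chromosome 19, 34315580 to 34329826, reverse strand, 9 exons), had 15032 and 28893 counts in WT replicates 1 and 2, with 14379 and 23264 in *Phf2* KO. This was 624 and 1113.5 CPM in WT and 694 and 968 CPM in *Phf2* KO, or 869 ± 346 and 831 ± 194 CPM (SD, n = 2). The *Phf2* KO values lay between those of WT. Within replicate 1 the *Phf2* KO library was at 111% of WT, and within replicate 2 at 86.9%. Without the block the log2 fold change was -0.06 (standard error 0.33) with a 95% interval from -0.94 to 0.81, and -0.02 with the block (95% interval from -0.22 to 0.17). Neither was called (adjusted p = 0.999, and 0.932 with the block, by edgeR's quasi-likelihood test). *Acta2*, *Tagln*, *Myl9* and *Lmod1* were the 4 members whose ratios within replicate numbers lay further from their midpoint than 1 blocked standard error. For *Acta2* the gap was 0.18 on the log2 scale, against a standard error of 0.10 taken almost wholly from other genes. With 2 ratios a gap above 1 standard error is not unusual, and its share over all genes was not counted.

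*Actg2*, the γ-actin of visceral smooth muscle (chromosome 6, 83462899 to 83486259, reverse strand), had 469 and 565 counts in WT, with 296 and 444 in *Phf2* KO. It was at 19.5 and 21.8 CPM in WT and 14.3 and 18.5 CPM in *Phf2* KO. It was the only member whose groups did not overlap, as was so, with *Phf2* KO lower, for 18.0% of all genes tested. The level in *Phf2* KO was 73.4% of that in WT within replicate 1 and 84.8% within replicate 2. Without the block *Actg2* was not called, at a log2 fold change of -0.33 (standard error 0.17, 95% interval from -0.78 to 0.12), with an unadjusted p = 0.114 and an adjusted p = 0.999 by edgeR's quasi-likelihood test. With the block it was -0.34 (standard error 0.11) and was called (adjusted p = 0.0417 by edgeR's quasi-likelihood test), as it was by limma-voom with the block. DESeq2 with the block did not call it (adjusted p = 0.637). Of the windows of 50 bases in the longest coding transcript, 0% were shared with coding transcripts of other genes for *Actg2* and 0.404% for *Acta2*, all of the latter with *Actg1*. Pseudogenes were not searched.

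Of the proteins that line the actin filament, *Tagln* encodes transgelin (SM22), which bundles actin, on chromosome 9 (45737711 to 45744141, reverse strand). Its levels were 255 and 397 CPM in WT and 264 and 340 CPM in *Phf2* KO, and the *Phf2* KO values lay within those of WT. The ratio within replicate 1 was 104% and within replicate 2 85.8%, and the log2 fold change was -0.11 (standard error 0.26), or -0.09 with the block. *Pcsk7* on the opposite strand shares 65 bases, 4.10% of the exon length, with *Tagln*.

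*Cnn1*, calponin of smooth muscle, which binds actin and restrains the myosin motor, was the least abundant member. It lies on chromosome 9 (21903725 to 21914074, forward strand) and had 87 and 163 counts in WT, with 53 and 117 in *Phf2* KO, or 3.61 and 6.28 CPM and 2.56 and 4.87 CPM. *Phf2* KO was at 70.9% of WT within replicate 1 and at 77.5% within replicate 2. The groups overlapped, since *Phf2* KO replicate 2 lay above WT replicate 1. *Cnn1* was not called at a log2 fold change of -0.41 (standard error 0.44), nor at the blocked value of -0.42 (adjusted p = 0.197 by edgeR's quasi-likelihood test). Counting error alone gives a 95% interval from -0.99 to -0.004 for the log2 ratio in replicate 1.

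The tropomyosins, coiled-coil proteins that lie along actin and govern access of myosin, were not called. *Tpm1* (chromosome 9, 66870397 to 66897213, reverse strand) has 21 annotated transcripts, of muscle and non-muscle types, which these gene counts do not part. It was at 797 and 1046 CPM in WT and 804 and 1120.5 CPM in *Phf2* KO, the only member above WT within both numbers, at 101% and 107%, though not in replicate 1 when scaled by library size alone (log2 ratio -0.03). Its log2 fold change was 0.06 (standard error 0.22), 0.06 with the block (95% interval from -0.14 to 0.25). *Tpm2* (chromosome 4, 43527583 to 43536637, reverse strand) was at 121 and 197 CPM in WT and 112 and 170 CPM in *Phf2* KO, or 92.3% and 86.2% of WT within replicates 1 and 2. For *Tpm2* the log2 fold change was -0.18 (standard error 0.31). With the block it was -0.17 (standard error 0.08), with an unadjusted p = 0.0468 and an adjusted p = 0.247 by edgeR's quasi-likelihood test.

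*Lmod1*, leiomodin, which starts new actin filaments in smooth muscle, lies on chromosome 1 (137221384 to 137264642, forward strand). It was at 27.1 and 48.0 CPM in WT and 25.7 and 37.5 CPM in *Phf2* KO. The ratio was 94.9% within replicate 1, where its counting interval held no change, and 78.1% within replicate 2. Its log2 fold change was -0.25 (standard error 0.34), and with the block -0.23 (standard error 0.10), at an adjusted p = 0.134 by edgeR's quasi-likelihood test.

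The myosin chains were not called in either fit. *Myh11*, the myosin heavy chain of smooth muscle (chromosome 16, 14194620 to 14291501, reverse strand, 42 exons), had 576 and 1026 counts in WT, with 484 and 937 in *Phf2* KO. Its levels were 23.9 and 39.5 CPM in WT and 23.4 and 39.0 CPM in *Phf2* KO, so that each *Phf2* KO library stood beside the WT library of its number, at 97.7% and 98.6%. This gave a log2 fold change of -0.02 (standard error 0.35), or -0.03 with the block, with a 95% interval from -0.22 to 0.16. *Myl9*, the regulatory light chain whose phosphorylation triggers contraction (chromosome 2, 156601156 to 156607394, forward strand), was at 124 and 231 CPM in WT and 134 and 210 CPM in *Phf2* KO. It was at 108% of WT within replicate 1 and 91.2% within replicate 2. Its log2 fold change was -0.04 (standard error 0.37), and -0.02 with the block (95% interval from -0.18 to 0.15). Of the 50-base windows of *Myh11*, 0.395% were shared with *Myh9* and *Myh10*.

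*Des*, desmin, the intermediate filament protein that links the contractile apparatus in smooth and striated muscle and is also made by pericytes, had the lowest log2 fold change of the 10 in both fits. It lies on chromosome 1 (75356904 to 75365154, forward strand), and the processed transcript *Gm15179* on the opposite strand shares 5.86% of its exon length. *Des* had 1279 and 609 counts in WT replicates 1 and 2, with 664 and 338 in *Phf2* KO. This was 53.1 and 23.5 CPM in WT and 32.0 and 14.1 CPM in *Phf2* KO. Because replicate 1 was the higher in both groups, *Phf2* KO replicate 1 lay above WT replicate 2 and the groups overlapped. Within the numbers *Phf2* KO was at 60.4% and 59.9% of WT, log2 ratios of -0.73 and -0.74, with 95% counting intervals from -0.86 to -0.59 and from -0.93 to -0.55. Without the block *Des* stood at a log2 fold change of -0.73 with a standard error of 0.56 and was not called (unadjusted p = 0.249, adjusted p = 0.999 by edgeR's quasi-likelihood test). With the block it was the same, -0.73 (standard error 0.10), and it was called (adjusted p = 5.51e-11 by edgeR's quasi-likelihood test), by DESeq2 (adjusted p = 0.000593) and by limma-voom with the block too. The unblocked value was -0.02 without WT replicate 1 and -0.26 without *Phf2* KO replicate 2, and -1.22 without WT replicate 2 and -1.44 without *Phf2* KO replicate 1.

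**Figure D2:**
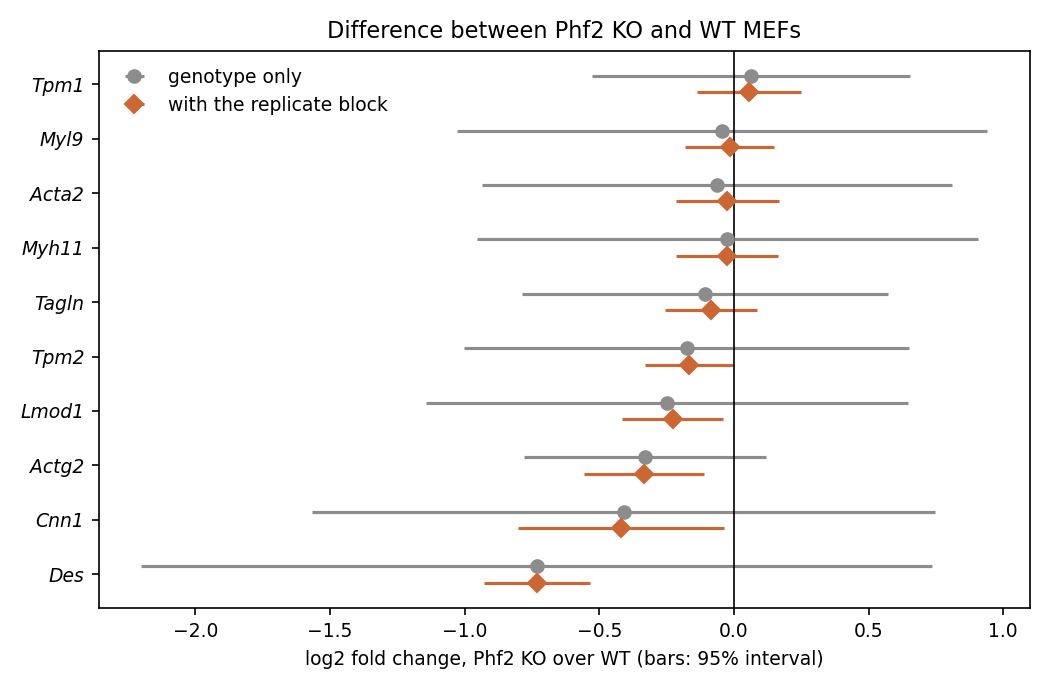
Log2 fold change of *Phf2* KO over WT for each contractile gene, with genotype as the only term (grey circles) and with replicate number as a block (orange diamonds); bars are 95% intervals from edgeR's quasi-likelihood fit. The grey bars all cross 0, and the orange bars of *Des* and *Actg2*, the only members called, lie below it, as do those of *Cnn1*, *Lmod1* and *Tpm2*, which did not pass adjustment over all genes.

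For 9 of the 10, all but *Actg2*, the fitted difference between the replicate numbers was larger in size than that between *Phf2* KO and WT. The share of all genes for which this held was not counted. Over all genes with reads, chi-square per degree of freedom was 51.0 and 35.1 between the libraries of WT and of *Phf2* KO. It was 18.8 and 14.6 between WT and *Phf2* KO within replicates 1 and 2, so the larger replicate difference is not particular to this group. Of the 10, 9 were higher in replicate 2 than in replicate 1 and *Des* was lower, and all 10 were called with genotype in the fit (edgeR's quasi-likelihood test, adjusted p-value under 0.1), where 26.2% of all genes tested were called, 12.6% higher in replicate 2 and 13.6% lower. The log2 difference ran from 0.26 for *Actg2* (standard error 0.11, adjusted p = 0.0888 by edgeR's quasi-likelihood test) to 0.85 for *Cnn1* (standard error 0.20) among the 9, and was -1.18 for *Des* (standard error 0.10). *Acta2* was 1.79 times higher in replicate 2 in WT and 1.39 times in *Phf2* KO, and *Myl9* 1.86 and 1.57 times. *Myh11* differed by 1.65 times in WT and 1.67 times in *Phf2* KO. *Des* in replicate 2 was at 0.442 and 0.439 times its level in replicate 1. Summed, the 9 genes other than *Des* were at 1995 and 3099 CPM in WT and at 2074 and 2908.5 CPM in *Phf2* KO replicates 1 and 2. The replicate numbers also differed in the sex-linked genes and in macrophage markers, of which all 18 tested were called lower in replicate 2, and the part of either in these differences was not tested. Of the 14 fibroblast markers, 1 was called higher and 1 lower in replicate 2.

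**Figure D3:**
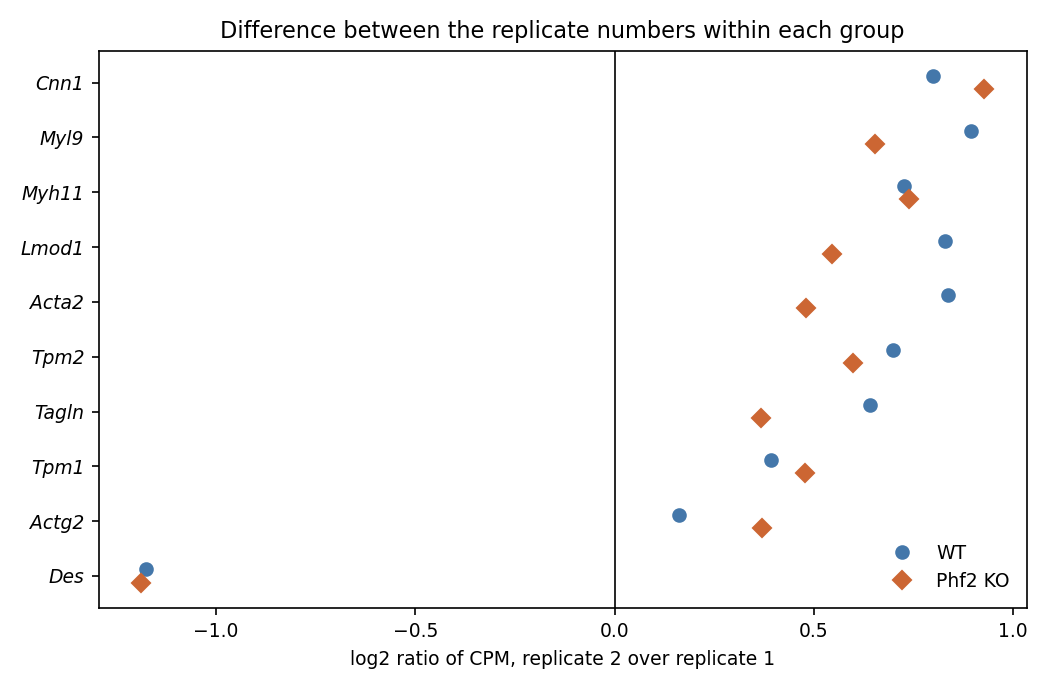
Log2 ratio of CPM in replicate 2 over replicate 1 for each contractile gene, in WT (blue circles) and *Phf2* KO (orange diamonds). In both groups 9 genes lie above 0, up to 0.93 for *Cnn1* in *Phf2* KO, and *Des* lies at -1.18 in WT and -1.19 in *Phf2* KO.

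The genes whose pattern over the 4 libraries lay nearest to that of *Acta2* were found by the root mean square distance between log2 CPM values centred on their mean, among 10239 genes with a mean of at least 5 CPM. The nearest 5 outside the group were *Fam131a* (distance 0.03), *Gata2* (0.05), *Celsr2* (0.06), *Sod3* (0.06) and *Cdo1* (0.06). *Gata2* encodes a transcription factor and *Sod3* an extracellular superoxide dismutase. Of the contractile genes, *Myl9* ranked 7 and *Tagln* 18, with *Tpm2* at 32, *Lmod1* at 39, *Myh11* at 40 and *Tpm1* at 214. *Actg2* ranked 2503 and *Des* 9974, and *Cnn1* was below the limit of abundance. The distances rest on 4 libraries and are a description.

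Other genes of the contractile programme were read from 6 lists with 112 genes, of which 92 were tested. Genotype as the only term called 0 of these, and 4 had an unadjusted p-value under 0.05. With the block 15 were called higher and 7 lower in *Phf2* KO, 23.9% of those tested against 11.0% of all genes; DESeq2 with the block called 11 in all and limma-voom 21. The lists differed in which way their called genes went.

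Among 22 other smooth muscle genes tested, 3 were called higher and 1 lower with the block, against 5.77% and 5.20% of all genes. The median log2 fold change of the 22 was -0.03. *Nexn*, nexilin, an actin-binding protein, was at 25.0 and 42.1 CPM in WT and 37.5 and 55.2 CPM in *Phf2* KO, higher within both numbers (blocked log2 fold change 0.48, standard error 0.09). *Mylk*, the kinase that phosphorylates the light chain encoded by *Myl9*, was at 90.3 and 143 CPM in WT and 118 and 159 CPM in *Phf2* KO (0.26 with the block, standard error 0.08). *Fhl1*, an LIM protein of muscle, was at 0.23 with the block (standard error 0.08) and differed by 0.02 within replicate 2. *Sorbs2*, an adaptor at actin stress fibres, was lower, at 92.3 and 103 CPM in WT and 61.5 and 80.8 CPM in *Phf2* KO (-0.46 with the block, standard error 0.08). *Pln* and *Kcnmb1*, markers of differentiated smooth muscle, were counted at most 3 times in any library.

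The non-muscle counterparts of the contractile proteins had a median log2 fold change of 0.11 with the block over 19 genes tested. There, 3 were called higher and 0 lower in *Phf2* KO, and 12 were higher and 1 lower within both numbers, where 5.77% and 5.20% of all genes were called higher and lower and 32.6% and 30.2% were higher and lower within both. The 3 were *Myl12a* and *Myl6*, light chains of non-muscle myosin, and *Cnn2*, a calponin of non-muscle cells. The light chain of *Myl6* also belongs to smooth muscle myosin, so this gene is not particular to non-muscle cells. *Myl12a* was at 687 and 861 CPM in WT and at 969 and 990 CPM in *Phf2* KO (0.35 with the block, standard error 0.10), and both *Phf2* KO libraries lay above both WT libraries. *Cnn2* was at 358 and 510 CPM in WT and at 517 and 562 CPM in *Phf2* KO (0.34, standard error 0.09), also without overlap, as for 15.5% of all genes tested with *Phf2* KO higher. *Myl6* was at 171 and 228 CPM in WT and at 230 and 255 CPM in *Phf2* KO (0.29, standard error 0.09), again without overlap. Within the calponins, the smooth muscle *Cnn1* stood at -0.42, not called, and the non-muscle *Cnn2* at 0.34, and the difference between these paralogs was not tested.

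Of 13 regulators of these genes tested, SRF and its partners among them, 1 was called higher with the block and 0 lower. Over all genes tested the shares were 5.77% and 5.20%. The regulator called was *Fhl2*, an LIM protein that binds SRF, at 362 and 537 CPM in WT and 513 and 638 CPM in *Phf2* KO (0.37, standard error 0.09). *Srf* was at 70.3 and 78.5 CPM in WT and 74.7 and 71.1 CPM in *Phf2* KO, and its cofactor *Mkl1* (also named Mrtfa) at 130 and 127 CPM in WT and 130 and 124 CPM in *Phf2* KO. *Myocd*, which encodes myocardin, the cofactor particular to muscle, was low but above the floor, at 0.622 and 1.66 CPM in WT and 0.772 and 1.12 CPM in *Phf2* KO.

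TGF-β ligands, receptors, Smads and *Ltbp* genes had the largest share of calls of the 6 lists, with 5 called higher and 3 lower of 12 tested. Of all genes tested, 5.77% were called higher and 5.20% lower with the block. *Ltbp2*, which encodes a matrix protein, was at 791 and 1214 CPM in WT and at 1267 and 1429 CPM in *Phf2* KO (0.46, standard error 0.10). *Ltbp1*, which encodes a carrier of latent TGF-β, was not called (0.05, standard error 0.09). The ligand *Tgfb3* was at 213 and 307 CPM in WT and 301 and 335 CPM in *Phf2* KO (0.31, standard error 0.09). *Smad7*, the inhibitory Smad that TGF-β induces, was at 0.32 (standard error 0.10) on the same blocked log2 scale. The receptors *Tgfbr2* and *Tgfbr3* were called lower, at -0.30 and -0.21. The other calls were the ligand *Tgfb2* (0.26) and the signal carrier *Smad3* (0.23), higher, and *Smad2* (-0.27), lower.

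Of 12 further markers of myofibroblasts tested, 3 were called lower and 1 higher with the block, against 5.20% and 5.77% of all genes, and 9 were lower in *Phf2* KO within both numbers, against 30.2%. *Postn*, the matricellular protein periostin, was at 6875 and 4397 CPM in WT and at 3528.5 and 3111 CPM in *Phf2* KO (-0.73, standard error 0.12), without overlap. *Lrrc17* was at 48.1 and 41.1 CPM in WT and 19.9 and 23.6 CPM in *Phf2* KO (-1.03, standard error 0.10), and was the only gene of the 6 lists that DESeq2 called without the block. *Cthrc1*, a collagen-associated protein, was at -0.33 (standard error 0.10) and *Fap*, a membrane protease of activated fibroblasts, at 0.48 (standard error 0.15). *Postn*, *Lrrc17* and *Cthrc1* encode secreted proteins and not parts of the contractile apparatus.

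Markers of striated muscle bear on *Des*, which skeletal muscle shares. The myogenic factors *Myod1*, *Myog*, *Myf5*, *Myf6* and *Pax7* and the muscle creatine kinase *Ckm* were counted at most 3 times in any library. *Pax3* had 31 and 15 counts in WT and 23 in each *Phf2* KO library. The most abundant of the list were *Myh2* and *Tnnt2*. *Myh2* was at 13.3 and 30.9 CPM in WT and 21.7 and 26.8 CPM in *Phf2* KO, and *Tnnt2* at 15.3 and 23.7 CPM and 21.9 and 25.0 CPM. The 14 of 29 markers tested summed to between 51.6 and 86.7 CPM, lower in replicate 1 than in replicate 2 in both groups. With the block 2 were called higher in *Phf2* KO, *Myh8* and *Tnnt2*, and 0 lower, against 5.77% and 5.20% of all genes. Within both numbers 4 of the 14 were lower, *Ttn*, *Tnnt3*, *Neb* and *Nppa*, and 4 higher, against 30.2% and 32.6% of all genes. The 4 lower ones had at most 44 counts in any library. *Myh3*, not tested, had 9 and 14 counts in WT and 2 and 1 in *Phf2* KO. *Myh8* was at 1.62 and 4.59 CPM in WT and 3.81 and 5.62 CPM in *Phf2* KO. Pericyte markers, 9 of 11 tested, summed to 1319 and 1309 CPM in WT and 1519.5 and 1350 CPM in *Phf2* KO replicates 1 and 2. These sums hide opposite differences between the replicate numbers, with 5 markers called higher and 1 lower in replicate 2. *Anpep* was at 431 and 105 CPM in WT and 477 and 140 CPM in *Phf2* KO, and *Pdgfrb* at 686 and 901 CPM and 809 and 894 CPM. *Anpep* was the 1 lower in replicate 2, by a log2 difference of -1.90, against -1.83 for the macrophage marker *Lyz2*. With the block 4 pericyte markers were called higher and 2 lower in *Phf2* KO, against 5.77% and 5.20% of all genes. The 2 lower were *Abcc9* (-0.50) and *Cspg4* (-0.33), and the 4 higher *Mcam* (0.53), *Notch3* (0.43), *Rgs5* (0.33) and *Anpep* (0.27). Macrophage markers were called higher in *Phf2* KO with the block for 8 of the 18 tested and lower for 0, against the same shares of all genes. Of the 14 fibroblast markers, 1 was called higher with the block, *Mfap5* (0.29), and 3 lower, against the same shares. The 3 were *Lum* (-0.73), *Col5a1* (-0.52) and *Fbln1* (-0.40). The part of these cells in the lower *Des* and *Actg2* of the blocked fit was not tested.

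**Figure D4:**
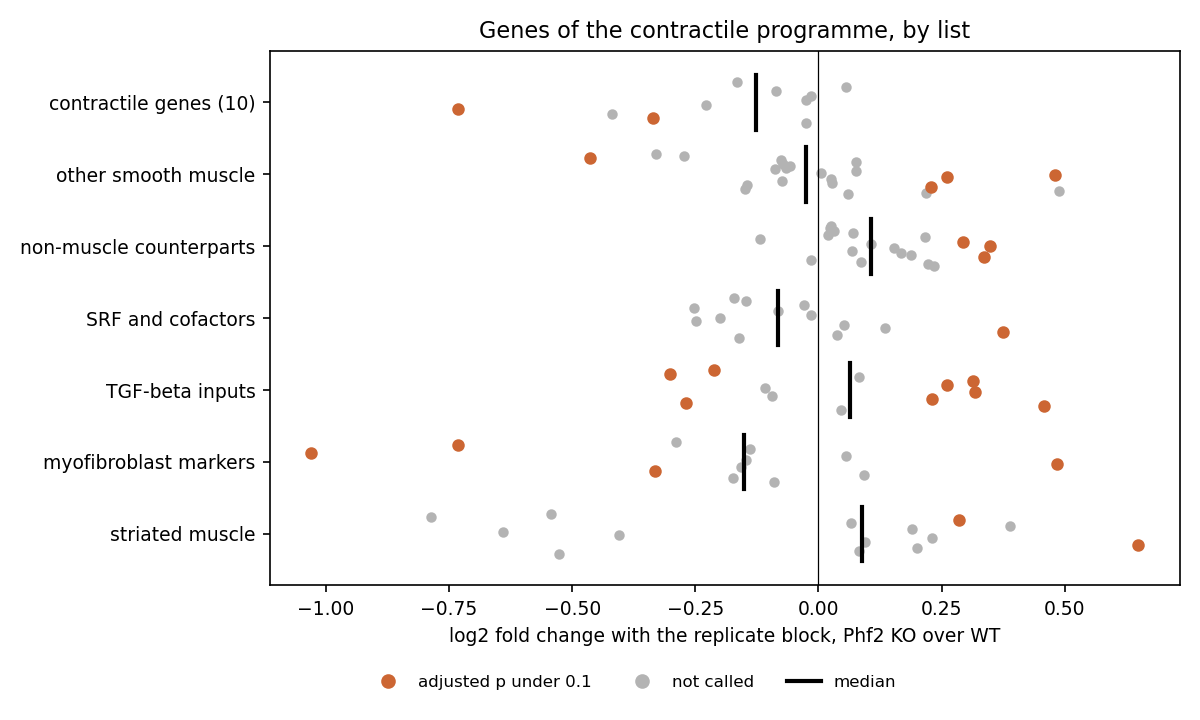
Log2 fold change of *Phf2* KO over WT, with the replicate number as a block, for the 10 contractile genes and the tested genes of 6 lists; orange points passed the adjusted threshold of 0.1, grey points did not, and black bars are medians. The called contractile genes lie left of 0, and those of the TGF-β list on both sides. The 3 called genes listed as non-muscle counterparts lie right of 0, and of these *Myl6* also serves smooth muscle.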

How the data were processed

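Per the paper's methods, single reads were trimmed with Trim Galore, cleared of ribosomal RNA with bowtie2, aligned by STAR (reverse stranded) to mm9, and assigned to genes with featureCounts; the strand setting of the counting step, versions and annotation release are not given in the sources used here. The authors deposited whole-number counts per gene symbol, not normalized. Their second table holds their own DESeq2 comparison and was not used.

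The tests used edgeR 4.0.16 under R 4.3.3 (filterByExpr, TMM, glmQLFit, glmQLFTest, Benjamini-Hochberg adjustment over 13668 genes, threshold 0.1). The code was tested on simulated data with less spread than the fit without the block found here. That test says nothing of the power to call changes in these libraries. Standard errors were taken from the test's F statistic. Alternatives were DESeq2 1.42.0, limma-voom 3.58.1, other scaling and filters, stricter thresholds, a block for the replicate number, and leaving out each library in turn. Figures used Matplotlib 3.10.9. Gene models came from an annotation of NCBIM37.

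Labels do not state a pairing. Sex-linked counts matched within replicate numbers, and replicate differences in WT and *Phf2* KO correlated across 13656 genes (Pearson's r = 0.746; genes are not independent). With the block 1 residual degree of freedom was left, and the common dispersion was 0.00363, against 0.0451 without the block. Libraries of a group differed beyond sampling noise (chi-square per degree of freedom 51.0 and 35.1).

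The members, lists and tests were chosen with earlier results of these data known. Named genes were the 10 members, called list genes with the largest blocked change and like direction in both numbers (at most 4 a list), otherwise the 2 most abundant, *Phf2*, and the 5 genes nearest to *Acta2*. *Srf*, *Mkl1*, *Myocd*, *Pax3*, *Myh2*, *Actb*, *Vim* and *Myh9* were named after their values were seen. So were *Ltbp1*, further calls of the TGF-β list, called fibroblast and pericyte markers and markers at or near 0. The same holds for *Myh3* and the striated muscle markers lower in both numbers. A further gene list and 1 gene of the TGF-β list are not reported here and were left out of the list counts.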

Additional observations from a re-analysis of the deposited data

Results flagged for a closer look

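For 3 contractile genes the *Phf2* KO library was above the WT library in replicate 1 and below it in replicate 2, numbers that also differ in sex-linked genes. Scaled by library size alone, *Tpm1* and *Myh11* were also split, below WT in replicate 1 and above it in replicate 2. The log2 ratios were 0.15 and -0.20 for *Acta2*, 0.052 and -0.22 for *Tagln*, and 0.11 and -0.13 for *Myl9*. Each ratio rests on 1 library per group, and the difference between the numbers was not tested. The 95% counting interval of *Tagln* in replicate 1, from -0.001 to 0.10, holds 0, and those of *Acta2* (0.12 to 0.19) and *Myl9* (0.03 to 0.18) do not; counting error leaves out the spread between cultures. Opposite directions were found for 37.2% of all genes tested.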

How the results depend on the processing

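No member was called without the replicate block under any tool, scaling, filter, threshold or left-out library. Of all genes tested, 0 were called higher and 1 lower; limma-voom and thresholds of 0.05 and 0.01 gave 0 lower, DESeq2 10 higher and 56 lower, with 1 gene of the 6 lists. With the replicate block, edgeR called 789 higher and 711 lower, 2 members and 22 list genes; DESeq2 187 and 119, 1 and 11; limma-voom 725 and 646, 2 and 21. Added after seeing the data, the block gave at a threshold of 0.05 577 and 539, 2 and 18; with RLE size factors 899 and 712, 2 and 23; and with library size alone 803 and 810, 2 and 25. With each library left out, 0 genes were called lower, and the members' median ranged from -0.42 to 0.22, where the lone library of a group is taken to vary like the others. The sign turned for *Acta2* (-0.41 to 0.40), *Tagln* (-0.38 to 0.23), *Cnn1* (-0.95 to 0.030), *Myl9* (-0.41 to 0.46), *Tpm1* (-0.20 to 0.28), *Tpm2* (-0.50 to 0.20), *Myh11* (-0.44 to 0.37) and *Lmod1* (-0.59 to 0.21), and stayed negative for *Actg2* (-0.53 to -0.16) and *Des* (-1.44 to -0.02). Leaving out 1 library leaves the replicate numbers uneven between the groups. All 10 log2 fold changes kept their sign under the other tools, scalings and filters; within replicate numbers, library size alone turned *Tpm1* in replicate 1 (-0.03) and *Myh11* in replicate 2 (0.0007).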
